A study of Homo sapiens with 8 samples.

Results

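Chromatin accessibility was described here at 47 genes of the endoplasmic reticulum (ER), the compartment in which secreted proteins are threaded through a membrane, folded, checked and packed for export. Peaks were taken as members when the deposited table named 1 of these genes as the nearest transcript start. That gave 120 of the 62528 peaks, at 41 of the 47 genes, with 42 peaks within 1000 bp of the annotated start (promoter peaks) and 78 farther away (distal peaks). SPCS1, SPCS2, CRELD2, OS9, HSP90B1 and DNAJB11 had no peak under their own name. All 120 peaks passed the filter on low counts.

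The assay was ATAC-seq, in which a transposase cuts open chromatin and the cuts are sequenced and counted. The established human multiple myeloma lines JJN3 and KMS11 were each treated for 48 h with DMSO, with 200 nM pomalidomide, with 40 nM GNE-781, or with both drugs (the combination). Each line and treatment had 1 library, 8 in all, with no genotype change given for these cells. Pomalidomide redirects the ubiquitin ligase receptor cereblon to the lymphoid factors Ikaros and Aiolos, and GNE-781 blocks the bromodomain of the acetyltransferases CBP and EP300. Treatments were therefore compared across the pair of lines, and the lines across the 4 treatments. The labels do not say that libraries came from separate cultures, and each line was 1 source. Every p-value therefore measures the spread among these 8 libraries after a constant difference between the lines. With 3 residual degrees of freedom in edgeR, a peak's spread was estimated largely from the trend over all peaks (62.8 prior degrees of freedom). A small p is thus not a measure of how well that single peak repeats. All 3 drug groups were compared with the same 2 DMSO libraries.

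Myeloma cells descend from plasma cells, which secrete antibody at a high rate and carry an expanded ER. New chains enter through the SEC61 channel, are folded by chaperones such as HSPA5 (BiP) and by disulfide isomerases, and leave in COPII vesicles. Chains that do not fold are pulled back and degraded (ER-associated degradation, ERAD). When folding falls behind, 3 sensors, ATF6, IRE1 (the product of ERN1) and PERK (the product of EIF2AK3), start the unfolded protein response, in which ATF6 and XBP1 act on ER stress elements in promoters and ATF4 raises stress genes such as DDIT3 and TRIB3.

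Those elements are shown here because ATF6 and XBP1 act on them. The 47 genes were grouped by function, and most of them were not found to hold such an element. Of the 47 genes, 42 had a promoter window in RefSeq (GRCh38.p14; 250 bases before to 50 after a start). The classical ER stress element, CCAAT and CCACG separated by 9 bases, was found on either strand in 4 of the 42, HSPA5, HSP90B1, PDIA6 and CRELD2, or 9.52%, against 0.0916% of 27305 genes with a window. Its second form, ATTGG and CCACG separated by 1 base, was found in HERPUD1, SDF2L1 and HYOU1, or 7.14% against 0.0696%. The XBP1-type word TGACGTGG was found in UBE2J1, HYOU1, TXNDC5 and SSR3, or 9.52% against 0.927%, and the ATF4-type word TGATGNAA in HERPUD1, SRPRB and CREB3L2, or 7.14% against 4.46%. The short word CCAAT alone, which is part of both ER stress elements, was in 71.4% of members and 39.7% of all genes. TGANTCA, the AP-1 word, was in 9.52% against 9.37%, and the ETS core CCGGAA in 38.1% against 20.1%. All 42 genes had a peak over a window, while the 27305 were taken with or without one. The shares therefore compare unlike sets, and the part of open promoters in them was not tested. The elements are known from the ER stress response, and the list holds known genes of that response. A higher share of these elements among members is therefore a description and not an independent finding. A match is a description of the letters in the window and not a bound site. The TGACGTGG word of SSR3 and the TGATGNAA word of CREB3L2 were in windows without a peak, while another window of each gene had one.

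Of these, 8 windows are printed, 5′ to 3′ on the gene's strand and only the 250 bases before the start. Capitals mark the ER stress elements and the TGACGTGG and TGATGNAA words on either strand. The first 4 hold the classical element, the next 3 its second form, and TXNDC5 is shown because its gene held the member peak with the lowest p under the combination.
HSPA5, chr9:125241344-125241593, minus strand: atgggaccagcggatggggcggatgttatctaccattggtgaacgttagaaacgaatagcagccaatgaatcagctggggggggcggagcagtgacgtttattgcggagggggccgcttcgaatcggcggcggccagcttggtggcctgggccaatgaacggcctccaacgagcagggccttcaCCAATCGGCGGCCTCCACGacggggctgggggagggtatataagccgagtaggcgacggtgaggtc
HSP90B1, chr12:103930160-103930409, plus strand: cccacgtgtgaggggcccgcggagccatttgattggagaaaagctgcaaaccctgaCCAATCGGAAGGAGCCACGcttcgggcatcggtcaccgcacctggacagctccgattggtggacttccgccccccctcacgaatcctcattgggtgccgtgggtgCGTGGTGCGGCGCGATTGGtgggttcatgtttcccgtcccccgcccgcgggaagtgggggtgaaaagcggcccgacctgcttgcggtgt
PDIA6, chr2:10812786-10813035, minus strand: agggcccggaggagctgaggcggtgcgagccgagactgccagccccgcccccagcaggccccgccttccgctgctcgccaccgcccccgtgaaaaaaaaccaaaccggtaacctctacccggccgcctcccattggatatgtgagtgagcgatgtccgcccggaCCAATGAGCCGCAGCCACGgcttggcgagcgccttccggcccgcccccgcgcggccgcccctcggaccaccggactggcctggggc
CRELD2, chr22:49918384-49918633, plus strand: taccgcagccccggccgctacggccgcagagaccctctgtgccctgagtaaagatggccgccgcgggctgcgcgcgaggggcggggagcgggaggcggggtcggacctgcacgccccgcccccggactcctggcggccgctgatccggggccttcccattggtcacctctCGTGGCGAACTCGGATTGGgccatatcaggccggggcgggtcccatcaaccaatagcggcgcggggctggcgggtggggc
HERPUD1, chr16:56931892-56932141, plus strand: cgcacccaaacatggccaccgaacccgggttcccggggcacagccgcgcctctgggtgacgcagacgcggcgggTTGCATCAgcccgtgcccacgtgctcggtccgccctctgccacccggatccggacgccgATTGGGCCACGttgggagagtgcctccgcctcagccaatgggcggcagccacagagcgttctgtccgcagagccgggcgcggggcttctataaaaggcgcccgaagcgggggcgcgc
SDF2L1, chr22:21642052-21642301, plus strand: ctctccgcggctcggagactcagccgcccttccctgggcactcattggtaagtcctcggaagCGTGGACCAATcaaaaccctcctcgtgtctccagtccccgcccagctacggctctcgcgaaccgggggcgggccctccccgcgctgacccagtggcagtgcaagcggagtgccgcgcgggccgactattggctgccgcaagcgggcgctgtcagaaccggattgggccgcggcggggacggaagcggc
HYOU1, chr11:119057206-119057455, minus strand: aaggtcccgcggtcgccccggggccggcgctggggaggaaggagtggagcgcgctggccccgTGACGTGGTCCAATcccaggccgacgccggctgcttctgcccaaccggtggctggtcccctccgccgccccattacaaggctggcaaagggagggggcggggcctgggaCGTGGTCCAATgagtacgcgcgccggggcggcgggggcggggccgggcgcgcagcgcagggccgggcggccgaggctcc
TXNDC5, chr6:7910078-7910327, minus strand: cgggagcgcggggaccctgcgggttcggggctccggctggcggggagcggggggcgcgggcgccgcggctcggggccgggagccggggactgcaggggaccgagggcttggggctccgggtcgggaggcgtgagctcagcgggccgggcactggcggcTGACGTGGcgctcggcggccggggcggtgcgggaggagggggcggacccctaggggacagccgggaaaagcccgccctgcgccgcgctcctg
HSP90B1 carried 2 classical elements, on opposite strands, and HYOU1 carried 2 copies of the second form, 1 of which shared bases with a TGACGTGG word. The windows were rich in G and C, from 62% in HSPA5 to 82% in TXNDC5 over the bases printed.

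Peaks lay over a RefSeq window of each of the 42 genes, 45 peaks in total. For 12 of the 42 genes a window peak was named for another gene in the deposited table, often a divergent neighbour that shares the start region. The HSP90B1 start was such a case (chr12:103929512-103930687, 1176 bp, named for RP11-642P15.1), as were the starts of EDEM1, ATF6, DNAJB9, DNAJB11, DNAJC3, SEC61B, SPCS2, SPCS3, CRELD2, OS9 and 1 start of TXNDC5. Among the 6 genes without a peak of their own, 5 were covered in this way, all but SPCS1. With edgeR, none of the 45 window peaks passed the test in any comparison between treatments. Of all promoter peaks 0.49%, 0.00629% and 1.69% passed against DMSO with pomalidomide, GNE-781 and the combination, so 0 of 45 is near those shares. The median change of the 45 peaks under the combination was -0.04 on the log2 scale. Between the lines 3 of the 45 differed, all under their own names, where 21.7% of all promoter peaks did. HSP90B1, an ER member of the HSP90 family, stood at 79.7, 76.6, 77.6 and 70.3 CPM (library counts scaled to 1e6) in JJN3 under DMSO, pomalidomide, GNE-781 and the combination, and at 85.2, 82.1, 87.3 and 86.9 CPM in KMS11. Its log2 change under the combination was -0.06 ± 0.18 (SE). At the start of ATF6, the 8 libraries lay between 19.7 and 29.3 CPM, with an estimate of 0.36 under the combination (adjusted p = 0.495). The start of EDEM1, a mannosidase-like ERAD factor, stood at 124, 134, 138 and 106 CPM in JJN3 and at 107, 87, 97.7 and 81.9 CPM in KMS11 (-0.32, adjusted p = 0.322), with the combination lowest in each line.

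The total depth was 1366628 counts in JJN3 DMSO, the shallowest library, and 5435673 in KMS11 under the combination, the deepest. Between 0.257% and 0.312% of each library fell in member peaks, and the median member peak had 13.5 counts in JJN3 DMSO and 62.5 in KMS11 under pomalidomide. Small changes at distal peaks were therefore least measurable where JJN3 DMSO was involved. As a check of the cell type, 8 of 10 plasma cell markers had a promoter peak, SDC1, PRDM1, IRF4 and XBP1 among them, with a summed level of 302 to 345 CPM in JJN3 and 232 to 266 CPM in KMS11. TNFRSF17 and CD27 had none. Promoter peaks were named for 0 of 7 myeloid, 1 of 7 T or NK cell (CD8A), 1 of 6 erythroid (HBB), 2 of 6 B cell (PAX5 and CR2) and 4 of 8 stromal or epithelial markers. The summed B cell level was 12 to 21.8 CPM in JJN3 and 42.2 to 56.7 CPM in KMS11. The stromal or epithelial level was 56.4 to 68 CPM in JJN3 and 56.7 to 79.8 in KMS11. CD8A stood at 18.6 to 27.6 and 43.1 to 49 CPM, and HBB at 1.45 to 12.8 and 1.6 to 5.79 CPM. Of these peaks 1 at a plasma cell marker and 1 at an erythroid marker passed under the combination, and the part of such cells in the results was not tested.

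Promoters of the ER genes were open in both lines, and no promoter sum passed the test under any treatment. Counts were summed over the promoter peaks of each of 33 genes and scaled to 1e6 promoter counts (promoter CPM), which gives values about double those of the single peaks. With edgeR's quasi-likelihood test, 0 of the 33 sums passed an adjusted p of 0.05 with pomalidomide, where 0.49% of 13679 genes did. The count was also 0 with GNE-781 (0.00731% of genes) and with the combination (1.89%). At an unadjusted p under 0.05 the counts were 1, 2 and 5 genes. The share of all genes at that p was not counted, here or for the distal sums below. Under the combination the 33 log2 changes ran from -0.44 to 0.65 with a median of -0.05, and 32 of them lay within 0.5 of 0. A p above the threshold does not show that a promoter was unchanged.

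Per kb of peak, PDIA4, a disulfide isomerase, had the most open promoter of the 33 at 308 promoter CPM per kb, and FKBP11, a prolyl isomerase, the least open at 33.3. Among ERAD genes, EDEM3, which trims mannose from misfolded glycoproteins, had the highest promoter sum (317 CPM, 221 per kb) and EDEM2 the lowest (43.3 CPM, 58.2 per kb). EDEM2 also had the largest promoter estimate of the 33 under the combination, 0.65 on the log2 scale with an adjusted p of 0.123, from 34.7 to 58.8 in JJN3 and from 36.8 to 55.9 in KMS11. In both lines the combination library was the highest of the 4. DERL3, a retrotranslocation factor of secretory cells, lay at 98 to 111 in JJN3 and 116 to 152 in KMS11, and the lines did not overlap.

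**Figure D1:**
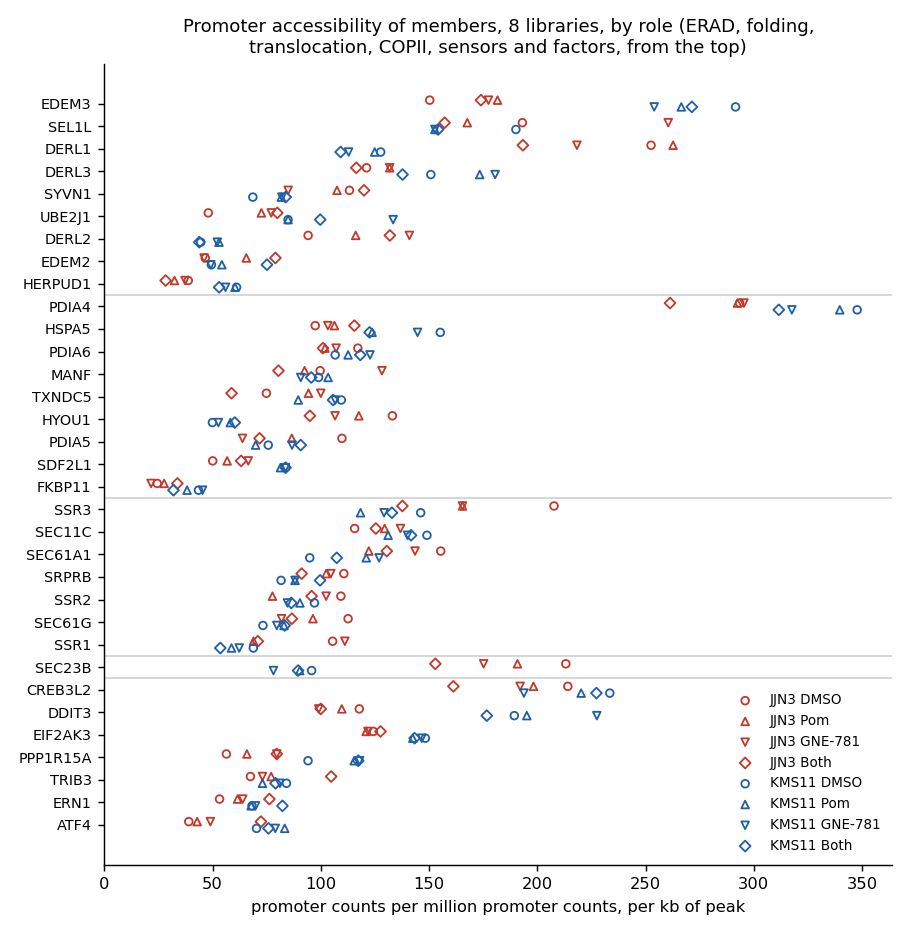
Promoter accessibility of 33 ER genes, in promoter CPM per kb of peak, with 1 symbol for each of 8 libraries; red is JJN3, blue is KMS11, and the symbol shape gives the treatment. Symbols of one line lie close together for most genes, while DERL2, HYOU1 and SEC23B lie higher in JJN3.

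HSPA5, the main chaperone of the ER, stood at 83.5, 91.1, 88.5 and 99 promoter CPM in JJN3 (in the order DMSO, pomalidomide, GNE-781, combination) and at 133, 106, 124 and 105 in KMS11. The combination library was the highest of the 4 in JJN3 and the lowest in KMS11, and the fitted change was -0.15 with an adjusted p of 0.772. Among folding genes PDIA4 had the highest sum (306 CPM) and TXNDC5 the lowest (19.5 CPM over a 211 bp peak, 92.4 per kb). SEC61A1, the pore of the translocation channel, lay at 103 to 131 in JJN3 and 80 to 107 in KMS11, ranges that overlapped. In the same role SEC11C, a signal peptidase subunit, had the highest sum (164 CPM) and SSR2, a translocon-associated subunit, the lowest (79.1 CPM). SEC23B was the only COPII gene with a promoter peak.

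No promoter of a sensor or stress factor passed as a sum either. ATF4, the translation-controlled factor downstream of PERK, stood at 47.3, 52, 59.4 and 87.7 promoter CPM in JJN3 and at 85.2, 101, 95.7 and 91.9 in KMS11. Its fitted change under the combination was 0.36 with an adjusted p of 0.39, and the treated libraries all stood above the DMSO library of their line, JJN3 under the combination by the most. DDIT3, the stress factor CHOP, ranged from 85.8 to 102 in JJN3 and from 153 to 197 in KMS11. ERN1 had the lowest sum of the role (74.4 CPM), with a change of 0.35 under the combination (adjusted p = 0.408), and CREB3L2 the highest (232 CPM). The EIF2AK3 promoter, of the sensor PERK, had an estimate of -0.01, with 146 to 154 CPM in JJN3 and 172 to 179 in KMS11. HERPUD1, an ERAD membrane protein, had an estimate of -0.28 under the combination (adjusted p = 0.471) for the sum of 3 promoter peaks. Its start peak alone had an estimate of -0.19.

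Under the combination 7 distal peaks of these genes fell and 0 rose. Of all 120 member peaks, 8 (6.67%) passed the test against DMSO, 7 lower and 1 higher, where 4.79% of 62234 peaks passed, 2.67% lower and 2.11% higher. By class, 1 of 42 promoter peaks passed (1.69% of all promoter peaks did) and 7 of 78 distal peaks, or 8.97% (5.85% of all distal peaks did). All 7 were lower, a direction in which 3.29% of all distal peaks passed. The median log2 change was -0.30 over the distal member peaks and -0.02 over the promoter member peaks, and 0 over all peaks of either class. The distal median rests on the KMS11 libraries: it was -0.08 without KMS11 DMSO and -0.07 without KMS11 under the combination. A peak lower in the libraries can mean fewer cells with that site open or less opening per cell, which cannot be told apart in bulk. An unadjusted p under 0.05 was reached by 26 member peaks (21.7%), 21 of them with a lower estimate, and by 10819 of the 62234 peaks (17.4%), 5970 of them with a lower estimate.

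**Figure D2:**
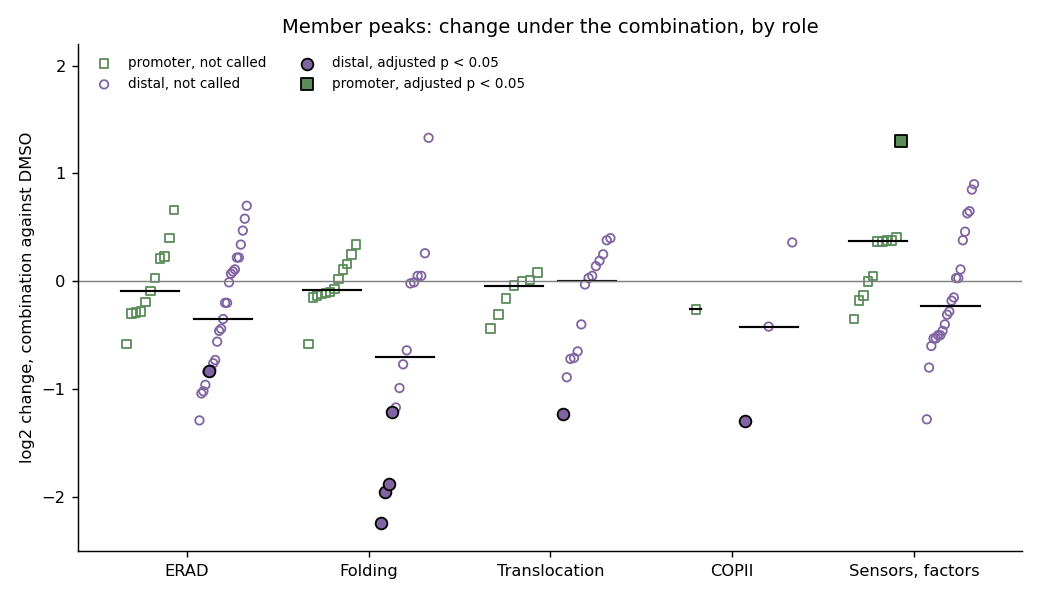
Log2 change of 120 member peaks under the combination against DMSO (fit over both lines), by role; squares are promoter peaks, circles distal peaks, filled symbols passed an adjusted p of 0.05, and horizontal bars are medians. The 7 filled circles lie between -0.83 and -2.24, and 4 of them belong to folding genes, with more than 1 at TXNDC5.

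By role, the 7 lower peaks fell at folding genes (4 of 26 member peaks), ERAD genes (1 of 36), translocation genes (1 of 21) and COPII genes (1 of 4). Among the 33 peaks of sensors and factors 0 were lower and 1 was higher. Of all peaks 2.67% were lower and 2.11% higher, and of all distal peaks 3.29% were lower. The folding peaks were the first and second TXNDC5 peaks described below and peaks of PDIA6 and DNAJC3. The roles were not compared by a test. The median change of distal peaks was -0.70 for folding, -0.42 for COPII, -0.35 for ERAD, -0.23 for sensors and factors, and 0 for translocation genes. Within the lines, log2 ratios were taken of 1 library to 1 library, with 2 counts, scaled to library depth, added. By these ratios the distal folding median was 0.39 in JJN3 and -0.72 in KMS11. The lower folding median over both lines is therefore not seen in JJN3. The distal sensor and factor median was 0.07 in JJN3 and -0.21 in KMS11, ERAD -0.04 and -0.36, translocation -0.03 and -0.27, and COPII -0.44 and -0.39 over 3 peaks. The difference between the lines in these medians was not tested. The 11 promoter peaks of sensors and factors had a median of 0.37, the highest of the promoter medians by role. All 7 lower peaks lay over the span of the gene they were named for in RefSeq, as did 56 of the 78 distal member peaks. No annotation of exons and introns was used here.

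TXNDC5, a disulfide isomerase of plasma cells and other secretory cells, had the member peak with the lowest p. The peak at chr6:7897840-7898490 lies 1752 bp from an annotated TXNDC5 start and over both TXNDC5 and the read-through gene BLOC1S5-TXNDC5. That start is not the one of the window printed above, which lies farther away at chr6:7910078-7910327. It stood at 48.1, 37.3, 33.3 and 15 CPM in JJN3 under DMSO, pomalidomide, GNE-781 and the combination (64, 112, 52 and 31 counts). In KMS11 it stood at 34.2, 24.2, 14.9 and 7.66 CPM (132, 113, 46 and 43 counts). The order of the 4 treatments was the same in both lines, with DMSO highest and the combination lowest, and the combination libraries did not overlap the DMSO libraries. The fitted change was -1.95 ± 0.25 (SE) on the log2 scale, 3.86-fold lower, with an adjusted p of 6.85e-07. It passed without each of the 8 libraries in turn (largest adjusted p 0.00678) and with DESeq2 (adjusted p = 4.05e-05).

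A second TXNDC5 peak, chr6:7900901-7901090, fell by 1.21 ± 0.36 on the log2 scale (adjusted p = 0.0315), from 14.3 to 4.85 CPM in JJN3 and from 13.7 to 6.59 CPM in KMS11. Both single-drug libraries also stood below DMSO in each line, at 5.82 to 8.79 CPM. The remaining TXNDC5 peaks did not pass. The promoter peak, which overlaps the window printed above, had an estimate of -0.12 (7.52 to 5.82 CPM in JJN3, 11.4 to 11.2 in KMS11). The start peak named for BLOC1S5-TXNDC5 had one of -0.15, with all 8 libraries between 32.1 and 41.7 CPM. The peak next to the first, chr6:7896378-7896815, had a positive estimate of 1.33 (adjusted p = 0.0755), from 1 count to 11 in JJN3 (a ratio of 7.1 with a counting interval of 1.03 to 305) and from 23 to 75 in KMS11.

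PDIA6, another disulfide isomerase, had a lower peak at chr2:10792156-10792429, with a fitted change of -1.88 ± 0.57 (adjusted p = 0.0388). Its counts were few: 4 under DMSO and 2 under the combination in JJN3, and 33 and 12 in KMS11. In JJN3 alone the DMSO level was 3.1 times that under the combination, with an exact 95% counting interval of 0.444 to 34.3, so a difference was not detectable at this depth in that line. A neighbouring PDIA6 peak did not pass (-1.17, adjusted p = 0.0612). It went from 21.8 to 6.79 CPM in JJN3 and from 7.51 to 4.45 in KMS11. The PDIA6 promoter, which holds the classical element, stood at 49.6 and 42.2 CPM in JJN3 and at 46.6 and 52.9 CPM in KMS11.

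The lower peak of DNAJC3, a co-chaperone of BiP (chr13:95696149-95696320), was the one with the fewest counts of the 8. It had 13, 13, 9 and 7 counts in JJN3 and 12, 8, 3 and 1 in KMS11, in the order DMSO, pomalidomide, GNE-781, combination. The fitted change was -2.24 ± 0.69 (adjusted p = 0.0424), and in KMS11 the DMSO level was 17.4 times the combination level with a counting interval from 2.58 to 746. The summed distal peaks of DNAJC3 (4 peaks) also passed, at -0.95 (adjusted p = 0.0291), as did those of TXNDC5 (4 peaks), at -0.85 (adjusted p = 0.0052). These were 2 of 25 genes with distal sums under the combination, where 5.73% of 18475 genes passed. That count was 0 without JJN3 combination or KMS11 DMSO, 1 without KMS11 combination, and 5 without JJN3 DMSO. With pomalidomide 0 of the 25 passed (1.08% of genes did), and with GNE-781 0 (0.00541%), against 4 and 3 at an unadjusted p under 0.05.

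SEL1L, the adaptor that joins the ubiquitin ligase HRD1 (the product of SYVN1) to ERAD substrates, had a broad peak of 1523 bp at chr14:81470054-81471576, 62285 bp from its start. In JJN3 it stood at 33.8, 37.3, 32.7 and 23.3 CPM and in KMS11 at 33.4, 30.4, 16.8 and 16.6 CPM. The combination library was the lowest in each line, and in KMS11 the GNE-781 library was as low. The fitted change was -0.83 ± 0.24 (adjusted p = 0.0253). SEL1L had 3 further distal peaks, with estimates of -1.02, -1.29 and 0.09, and none of these passed.

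SRPRB, the membrane subunit of the receptor that docks ribosomes at the ER, had a lower peak at chr3:133785099-133785513. This peak is 1066 bp from a start in the deposited table, 20302 bp from the nearest RefSeq start of SRPRB, and over the gene of transferrin (TF) as well. It stood at 16.5, 9, 12.8 and 6.79 CPM in JJN3 and at 12.7, 8.79, 10.3 and 5.52 CPM in KMS11, again with DMSO highest and the combination lowest in both. The fitted change was -1.23 ± 0.35 (adjusted p = 0.0242). The SRPRB promoter had an estimate of 0.08.

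SEC24D, a cargo-binding subunit of the COPII coat, had a lower peak at chr4:118760211-118760836, 77836 bp from its start. In JJN3 it stood at 9.02, 13.3, 13.5 and 3.39 CPM and in KMS11 at 19.2, 26.6, 10.3 and 7.84 CPM. Pomalidomide alone lay above DMSO in both lines and the combination below, while GNE-781 alone lay above it in JJN3 and below it in KMS11. The change was -1.30 ± 0.35 against DMSO (adjusted p = 0.0168) and -1.76 against pomalidomide (adjusted p = 0.00974).

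The 1 member peak that rose was assigned to TRIB3, a pseudokinase induced by ATF4 and CHOP. The peak, chr20:362357-362931, is counted as a promoter peak because the deposited table places it at the start of a TRIB3 transcript, but it lies 18364 bp from the RefSeq start of TRIB3 and over no RefSeq gene. It stood at 7.52, 21.7, 18.6 and 32.5 CPM in JJN3 and at 12.2, 22.3, 10.7 and 23 CPM in KMS11. Both libraries with pomalidomide lay above DMSO in each line, and GNE-781 alone lay above it in JJN3 only. The fitted change was 1.30 ± 0.29 (adjusted p = 0.00367) under the combination and 1.01 ± 0.29 (adjusted p = 0.0662) under pomalidomide alone. The peak at the RefSeq start of TRIB3 stood at 30.8 and 28.6 CPM in JJN3 and at 29 and 20.1 CPM in KMS11 under DMSO and the combination (chr20:380618-381244).

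**Figure D3:**
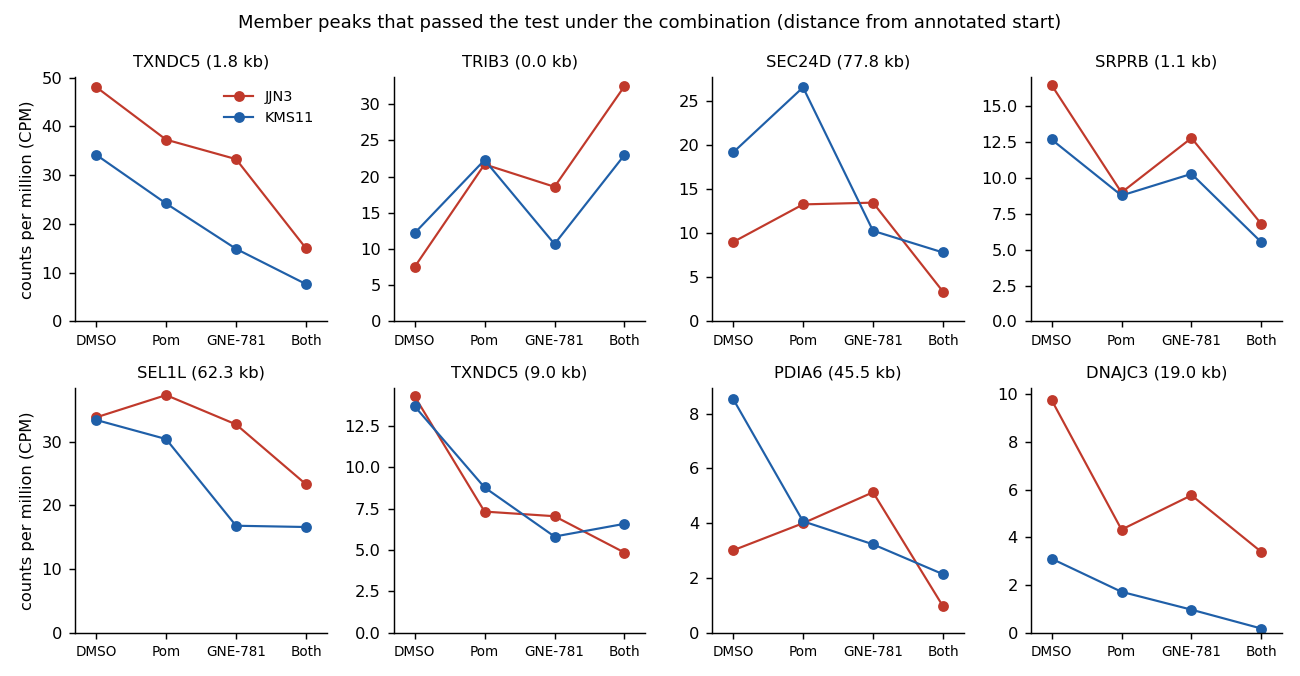
CPM in each of 8 libraries at the 8 member peaks that passed the test under the combination, each panel titled with the gene and the distance from its annotated start; lines only join the libraries of one cell line. The combination library lies below the DMSO library of its line in the 7 distal peaks and above it in the TRIB3 peak.

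Apart from the first TXNDC5 peak, these calls rest on single libraries. Without KMS11 DMSO or KMS11 under the combination 2 of the 8 passed, and without JJN3 under the combination 1 did. TRIB3 was lost without JJN3 DMSO (adjusted p = 0.0935) and without JJN3 under the combination. DNAJC3, SRPRB and the second TXNDC5 peak were lost without JJN3 DMSO, JJN3 combination, KMS11 DMSO or KMS11 combination, and SEC24D, SEL1L and PDIA6 without the last 3 of these. PDIA6 was also lost when only the 4 libraries compared were fitted (adjusted p = 0.0555). DESeq2 passed 1 of the 8, the first TXNDC5 peak, with 12 member peaks at an unadjusted p under 0.05 and no adjusted p for 31.

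**Figure D4:**
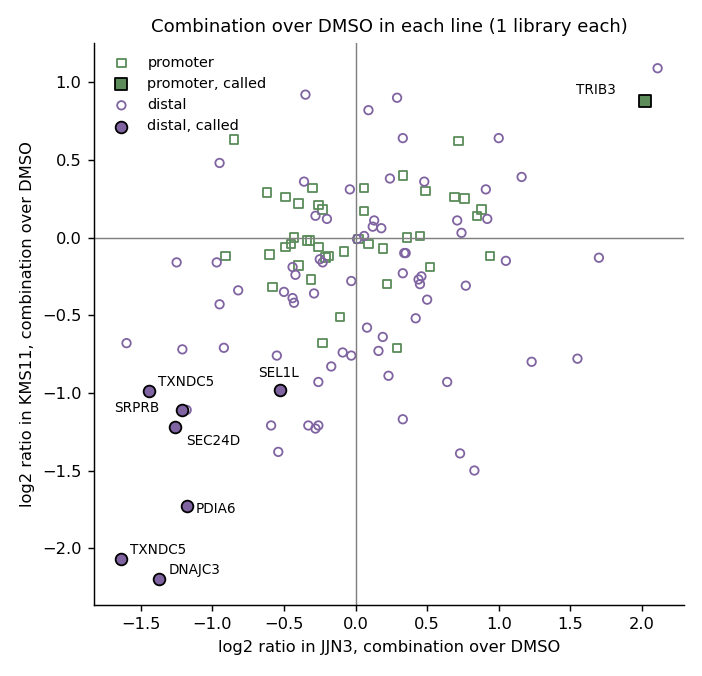
Log2 ratio of the combination over DMSO in JJN3 (x axis) and in KMS11 (y axis) for 120 member peaks. Each axis compares 1 library with 1 library, with 2 counts, scaled to library depth, added before the logarithm. Filled symbols passed the test over both lines. The 8 filled symbols have the same sign in both lines; 50 of the 120 peaks (41.7%) were lower in both and 27 (22.5%) higher in both, beside 29.3% and 29.8% of all peaks.

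Neither drug alone gave a member peak that passed. Under pomalidomide 0 of 120 passed with edgeR (1.25% of all peaks did), and DESeq2 also called 0 (4 at an unadjusted p under 0.05). With edgeR 18 (15%) had an unadjusted p under 0.05, beside 11.2% of all peaks. The 6 lowest p-values, none past the threshold, belonged to the TRIB3 peak above and to distal peaks of EDEM3 (-1.16, adjusted p = 0.122), CREB3L2 (-0.78, 0.166), SEC61B (0.51, 0.231), EDEM2 (-0.84, 0.296) and TXNDC5 (1.09, 0.31). The SEC61B peak, 30975 bp from the start of this translocation channel subunit, stood at 39.1 CPM under DMSO and 62.6 under pomalidomide in JJN3, and at 41.4 and 54 CPM in KMS11. The EDEM3 peak (chr1:184745938-184746515) had 6 and 3 counts in JJN3, a DMSO level 4.51 times that under pomalidomide with a counting interval of 0.963 to 27.9, and 82 and 50 in KMS11. When only the 4 libraries compared were fitted, the TRIB3 peak passed under pomalidomide (adjusted p = 0.0268). It also passed without either GNE-781 library.

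Under GNE-781 0 of 120 passed with edgeR (0.0209% of all peaks did), and DESeq2 called 0 (6 at an unadjusted p under 0.05). With edgeR 12 (10%) had an unadjusted p under 0.05, beside 6.58% of all peaks. The lowest p-values belonged to the first TXNDC5 peak (-0.88, adjusted p = 0.28), a SEL1L peak at chr14:81478561-81478978 (-1.72, 0.298), the second TXNDC5 peak (-1.14, 0.452), the UBE2J1 promoter (0.67, 0.466), and distal peaks of SPCS3 (-0.96, 0.584) and SEC61G (-0.61, 0.597). That SEL1L peak stood at 12 and 3.85 CPM in JJN3 under DMSO and GNE-781 and at 9.06 and 2.59 CPM in KMS11, from 16 and 6 counts and 35 and 8 counts. The UBE2J1 promoter, of an ERAD ubiquitin-conjugating enzyme, stood at 18 and 29.5 CPM in JJN3 and at 32.9 and 53 CPM in KMS11. Over the 78 distal member peaks the median was -0.23 with pomalidomide, -0.21 with GNE-781 and -0.30 with the combination, each against the shared DMSO libraries. By the ratios within each line these medians were -0.04, 0.02 and -0.03 in JJN3 and -0.19, -0.42 and -0.33 in KMS11, so the lower values are those of KMS11.

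Set against each drug alone, the combination lowered few member peaks. Against pomalidomide 2 of 120 passed, the first TXNDC5 peak (-1.50, adjusted p = 0.0058) and the SEC24D peak, where 0.0112% of all peaks passed (7 peaks). Both were lost without JJN3 combination, KMS11 pomalidomide or KMS11 combination. Against GNE-781 1 passed, the same TXNDC5 peak (-1.07, adjusted p = 0.0294), where 1.09% of all peaks passed. That call was lost without any 1 of the 4 libraries compared. DESeq2 called 0 in both comparisons (3 and 5 member peaks at an unadjusted p under 0.05). For the departure from additivity on the log2 scale, 0 member peaks passed with edgeR (0% of all peaks did). With DESeq2 0 were called (1 at an unadjusted p under 0.05). With edgeR 6 (5%) had an unadjusted p under 0.05, beside 2.64% of all peaks. The estimate for that TXNDC5 peak was -0.62 ± 0.35 and for the SEC24D peak -1.41 ± 0.48.

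Differences between the lines were larger than those between treatments. DNA copy number, which also affects counts, was not measured here, and its part in the line differences was not tested. Averaged over treatments, 30 of the 120 member peaks (25%) differed at least 2-fold between KMS11 and JJN3 with an adjusted p under 0.05, 16 higher and 14 lower in KMS11. Of all peaks 31.9% did, 15.8% higher and 16.1% lower. Among promoter peaks 7 of 42 differed (21.7% of all promoter peaks did) and among distal peaks 23 of 78 (35.4%). In promoter sums 3 of 33 genes differed, DERL2, HYOU1 and SEC23B, all lower in KMS11 (20% of all genes differed; 1 of the 3 passed without JJN3 DMSO or KMS11 DMSO), and in distal sums 4 of 25, DNAJB9, PDIA3, SSR1 and SSR3, all lower in KMS11 (27.8%). The single direction of these calls holds for changes of at least 2-fold only. Below that limit, the promoter sum of DERL1 was lower in KMS11 (-0.96), and those of DDIT3 (0.88) and HERPUD1 (0.78) were higher. Among distal sums DERL1 was lower (-0.61) and SPCS3 higher (0.92). The median log2 difference was 0.12 over promoter sums and -0.18 over distal sums. The 4 libraries of a line are 4 treatments and not repeats of one.

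Among genes of the translocation step, SSR3 and SSR1 had the largest differences. SSR3, a translocon-associated subunit, had a peak 50526 bp from its start (chr3:156605710-156606479) at 32.3, 49.7, 23.1 and 46.1 CPM in JJN3 and at 3.56 to 4.92 CPM in KMS11, 9.84-fold lower (log2 -3.30 ± 0.23, edgeR adjusted p = 5.24e-20). SSR1, another such subunit, had a peak at chr6:7261140-7261619 at 18.8 to 32.5 CPM in JJN3 and 3.21 to 6.47 in KMS11 (-2.47 ± 0.25). The lines did not overlap at either peak, and neither lies over a RefSeq gene. An SSR3 peak 6353 bp from its start was lower as well (-1.27 ± 0.35), a call lost without either pomalidomide library. The promoters of SSR3 and SSR1 differed by -0.33 and -0.48.

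Among folding genes, PDIA3, the glycoprotein-specific isomerase, had a peak 3295 bp from its start that was lower in KMS11 (-2.83 ± 0.48), with 15 counts in the 4 KMS11 libraries and 52 in the 4 JJN3 libraries. The ratio of JJN3 to KMS11 was 7.51 with a counting interval of 4.17 to 14.4. The DNAJC3 peak that fell under the combination was also lower in KMS11 (-2.01 ± 0.48), as was the only peak named for DNAJB9 (-1.30 ± 0.46), a call lost without pomalidomide or the combination in either line. The TXNDC5 peak at chr6:7896378-7896815 was higher in KMS11 (1.32 ± 0.34), though not without either pomalidomide library. HYOU1, a large ER chaperone, had neighbouring promoter peaks that differed in opposite directions. The peak at its start, with both copies of the second ER stress element, stood at 84.2 ± 12.5 CPM in JJN3 and 38.9 ± 3.07 in KMS11 (SD over 4 treatments), and a 253 bp peak 811 bp from that start was higher in KMS11, with 65 counts against 12.

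Among ERAD genes, EDEM3 had the largest difference of all member peaks, at chr1:184743035-184743558. It stood at 0.333 to 1.5 CPM in JJN3 (8 counts in 4 libraries) and at 10.9 to 18.9 CPM in KMS11 (240 counts), an edgeR adjusted p of 1.65e-12, and a ratio of 13.8 with a counting interval of 6.91 to 32.4. The EDEM3 peak named above under pomalidomide was higher in KMS11 as well (1.95 ± 0.32), while another, 90627 bp from the start, was lower (-1.13 ± 0.30 at chr1:184664052-184664286). HERPUD1 had 2 further promoter peaks that were higher in KMS11 (2.31 ± 0.33 and 1.80 ± 0.30), and its start peak, which holds the printed element, differed by 0.45. The peak with 1.80, chr16:56938658-56939450, is a promoter peak by a start in the deposited table and lies over no RefSeq window of HERPUD1. DERL2, a retrotranslocation factor, stood higher in JJN3 at its promoter (39.8 to 60.9 CPM against 19.4 to 23.3). Lower in KMS11 were also an EDEM1 peak 43281 bp from its start (-2.23 ± 0.29) and a DERL1 peak (-1.16 ± 0.27, lost without either GNE-781 library), and higher were distal peaks of DERL3 (1.72 ± 0.30) and UBE2J1 (1.86 ± 0.39).

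Among sensors and factors, an ATF6 peak inside the gene (chr1:161801932-161802507) stood at 2.67 to 6.41 CPM in JJN3 and 12.9 to 19.7 in KMS11 (1.95 ± 0.29). CREB3L2, a membrane-bound relative of ATF6, had 1 distal peak higher in KMS11 (1.43 ± 0.33), and PPP1R15A, which reverses the block on translation, had a peak 546 bp from its start that was higher (1.37 ± 0.27). An ERN1 peak at chr17:64103880-64104238 was lower in KMS11 (-1.47 ± 0.26), a call lost without either combination library. It stood at 9.02, 20.3, 16.7 and 27.6 CPM in JJN3 and at 7.51, 11.4, 4.2 and 4.1 CPM in KMS11, so that GNE-781 alone and the combination lay above DMSO in JJN3 and below it in KMS11. In a model with drug effects of each line, 0 member peaks passed for a difference between the lines in response to pomalidomide or to GNE-781, where 0.0675% and 0.00964% of all peaks passed. An unadjusted p under 0.05 was reached by 7 and 8 member peaks, and by 7.99% and 7.14% of all peaks. The ERN1 peak had the lowest adjusted p, 0.108 for GNE-781 (difference -1.80).

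**Figure D5:**
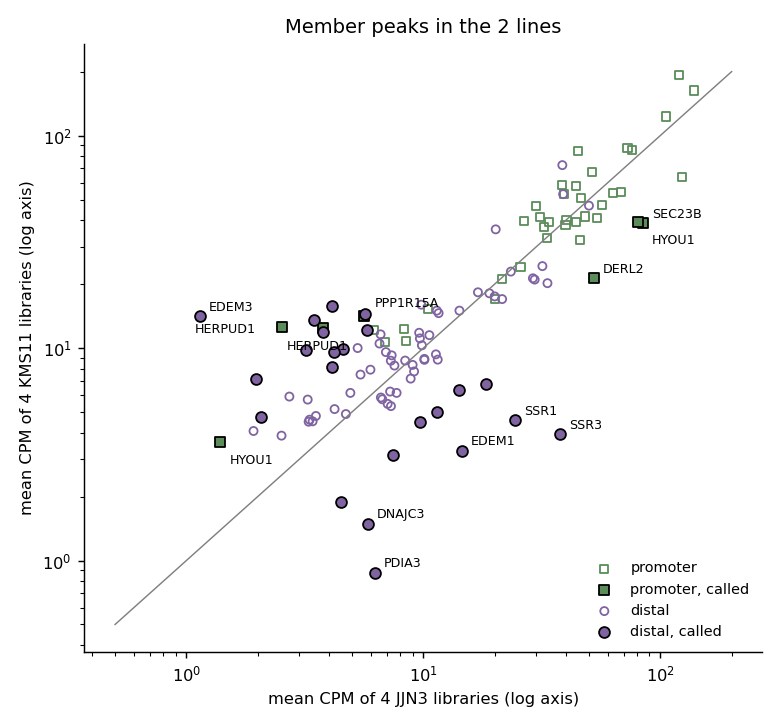
Mean CPM of each of 120 member peaks over 4 JJN3 libraries (x) and 4 KMS11 libraries (y), both axes logarithmic; the grey line marks equal levels and filled symbols differed at least 2-fold with an adjusted p under 0.05. SSR3, SSR1, EDEM1 and PDIA3 lie far below the line, and EDEM3 and HERPUD1 far above it.

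A wider list of 95 further ER genes gave 181 peaks at 78 genes. With pomalidomide 4 of these peaks (2.21%) rose and 0 fell, at DNAJC1 (1.51), CREB3L1 (1.03), SEC62 (1.66) and OSTC (1.26). Of all peaks 1.25% passed, 638 higher and 142 lower. The log2 ratios in JJN3 and KMS11 were 0.92 and 1.75 at DNAJC1, 0.85 and 1.1 at CREB3L1, 0.58 and 2.01 at SEC62, and 0.18 and 1.82 at OSTC. The SEC62 and OSTC rises are thus mainly those of KMS11. Peaks of the wider list were not followed with a library left out. With GNE-781 0 passed (0.0209% of all peaks did). An unadjusted p under 0.05 was reached by 7 of these peaks (3.87%), beside 6.58% of all peaks. Under the combination 4 rose, at DNAJC1 (2.02), NFE2L1 (1.21), OSTC (1.33) and CREB3L1 (1.09), and 4 fell, at TXNDC11 (-1.54), MBTPS1 (-0.92), ATF3 (-0.98) and KDELR1 (-1.92). All 8 were distal peaks. The DNAJC1 peak, of a membrane-bound J-domain co-chaperone, stood at 6.76, 13.3, 6.41 and 27.2 CPM in JJN3 and at 3.62, 13.7, 3.23 and 14.6 CPM in KMS11. The libraries with pomalidomide were high in both lines, and those with DMSO or GNE-781 alone were low. It also passed for the combination against GNE-781. The peak of MBTPS1, a protease that cuts ATF6 in the Golgi, stood at 38.3, 30, 21.2 and 16.5 CPM in JJN3 and at 12.4, 12.4, 9.38 and 8.01 in KMS11. The share of the wider list that passed under the combination was 4.42%, beside 4.79% of all peaks and 6.67% of the member peaks.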

How the data were processed

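ATAC-seq was measured in 8 libraries, 1 for each of 2 lines and 4 treatments. The deposited table holds whole-number counts per peak, made by the authors over 1 union of MACS2 peaks, by the table's name, with each peak's nearest transcript start; the notes name the build GRCh38. The tools listed by the submitters' processing notes are MACS2 2.1.1.20160309, Bowtie2 2.3.5.1, SAMtools 1.10, cutadapt 2.5, Trim Galore 0.6.4 and R 4.1.2. Not given in the sources used here are the removal of duplicate or mitochondrial reads, the transposase offset and how peaks were joined. PCR reads without molecular identifiers are not independent molecules, so counting intervals (exact, 95%) cover counting error only. Cells with BATF or eGFP constructs were not analysed here.

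All 62528 peaks entered 1 fit with edgeR 4.0.16 in R 4.3.3: peaks with a mean of at least 2 CPM (62234 peaks; 294 removed), TMM scaling, a term for line and a mean for each treatment, leaving 3 residual degrees of freedom, and quasi-likelihood tests with Benjamini-Hochberg adjustment over all peaks at 0.05. Between lines a fold of at least 2 was also required. CPM use the TMM-scaled library sizes. Ratios within a line add 2 counts scaled to the depth of each library, have no replicate check and were not tested. Counts summed per gene over promoter or distal peaks were fitted in the same way over all genes. The script was tested on simulated counts. Alternatives were DESeq2 1.42.0, its size factors in edgeR, no filter, only the libraries compared, promoter limits of 500 and 3000 bp, and leaving out each library. The RefSeq assignment of start peaks, the model with drug effects per line and the leave-one-out of gene sums were added after seeing the data.

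Peaks named are those that passed under each drug comparison, filled up to 6 by lowest p where fewer passed, the 10 largest differences between lines in each direction, and, per role, the highest and lowest promoter sums with 11 listed genes (HSPA5, HSP90B1, ATF4, DDIT3, ERN1, ATF6, EIF2AK3, DERL3, EDEM1, HERPUD1, SEC61A1). Other peaks of those genes, among them the HYOU1 pair, and the FKBP11 sum were named after their values were seen. The members and lists were chosen with earlier results of these data known. Promoter sequences are from RefSeq, GRCh38.p14. No sequence of a distal peak was read, since no genome was used here.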

Additional observations from a re-analysis of the deposited data

Results flagged for a closer look

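In the wider list 1 result had log2 ratios of opposite sign in the lines. The KDELR1 peak at chr19:48385399-48385877, in the gene of a receptor that returns escaped chaperones to the ER, had a log2 ratio of the combination over DMSO of 0.21 in JJN3 and -1.98 in KMS11, a difference of -2.19. The counts were 1 and 2 in JJN3 and 78 and 26 in KMS11. The difference between the lines was not tested, and its JJN3 value rests on very few counts. The sign of that JJN3 value also depends on how the added counts are scaled.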

How the results depend on the processing

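With 8 member peaks passing under the combination, leaving out 1 library gave 1 to 10 (1 without JJN3 combination, 2 without KMS11 DMSO or KMS11 combination), and DESeq2 gave 1. Under pomalidomide the 0 became 0 to 1 with 1 library left out and 1 with only the compared libraries. Against pomalidomide the 2 became 0 to 2, and 0 with DESeq2. Against GNE-781 the 1 became 0 to 2, 0 with DESeq2 and 2 with only the compared libraries. Distal sums passing under the combination went from 2 to 0 to 5 with 1 library left out and to 1 with promoters counted to 3000 bp. That limit turned 0 promoter sums into 1. Promoter sums differing between lines went from 3 to between 1 (without JJN3 DMSO or KMS11 DMSO) and 4. A pair of values changed sign with 1 library left out. The promoter median under the combination ran from -0.1 to 0.06, the latter without JJN3 combination. The pomalidomide estimate of the TXNDC5 peak at chr6:7896378-7896815 ran from -0.26 without KMS11 pomalidomide to 2.6 without KMS11 DMSO. The count of 30 peaks between lines stayed within 1.5 times under all alternatives run. The cause of these shifts was not tested. Leaving out a library leaves 1 library in that treatment, assumed to vary like the rest. The fit holds the line as a block. Beyond that no paired analysis was possible because each line and treatment has 1 library with no replicate number. Depth limits JJN3 DMSO most, where the median member peak had 13.5 counts.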
